A study of Mus musculus with 6 samples.

Results

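Laminin and integrin genes were examined for captured, methylated DNA in mouse heart ventricle at postnatal day 14 (P14) and postnatal day 1 (P1). Members were all regions of the deposited table whose gene symbol is a laminin chain (Lama, Lamb or Lamc and a digit) or begins with Itga or Itgb, leaving out Itgb1bp and Itgb3bp symbols. This gave 303 regions at 37 genes, of 213957 distinct regions and 101251 peaks in the series. There were 105 regions at 11 laminin genes and 198 at 26 integrin genes. The mice were male C57BL/6, with no treatment, and 3 libraries were made at P14 and 3 at P1. The labels call the tissue left ventricle, while the protocol text describes ventricles with the septum after removal of the atria. The libraries are numbered replicates, but whether they came from separate animals, and from 1 or several each, is not given in the sources used here, so p-values measure only the spread between these libraries, which may be technical. Sonicated DNA was enriched with a methyl-CpG binding domain protein and sequenced (MBD-seq), so a value is a number of captured reads and not a methylation level per site. In tissue of this kind a changed methylation within cells and a changed mix of cells cannot be told apart.

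Laminins are cross-shaped heterotrimers of an alpha, a beta and a gamma chain and the main organizers of basement membranes, including the one around each heart muscle cell. Integrins are receptors made of an alpha and a beta chain that tie the cytoskeleton to laminins, collagens, fibronectin and other ligands, and those on blood cells bind counter-receptors on other cells. In heart muscle the laminin receptor with the chains of Itga7 and Itgb1 and the laminin with the chain of Lama2 anchor the cell membrane to its basement membrane. Methylation at promoters rich in CpG dinucleotides goes with silencing, while methylation inside gene bodies is common at active and inactive genes alike.

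Libraries held 16284216 to 21512072 reads. Peaks, the short regions with enriched capture, held 31.3%, 18.4% and 17.0% of the reads in P14 replicates 1 to 3, against 11.6% to 13.4% at P1. The median laminin or integrin region held 51, 27 and 19 reads in P14 replicates 1 to 3 and 14, 15 and 16 reads in P1 replicates 1 to 3. These low counts limit the precision of each value. Differences were tested with edgeR's quasi-likelihood test in a pair of fits, over all 209063 regions that passed the filter on low counts and over the 96774 peaks among them. The fit over peaks asks how a region changed relative to other peaks. All log2 changes below are P14 over P1 from that fit unless stated, with Benjamini-Hochberg adjustment over all peaks and a threshold of 0.05. CPM are reads scaled to one fixed total of reads in peaks per library, with trimmed mean of M values (TMM) factors. Regions at genes that mark cell types, whose capture reports DNA methylation and not expression, had 10 of 65 tested regions called for cardiomyocytes (all lower at P14, 9 at Ryr2 and 1 at Ttn), 0 of 54 for endothelial cells, 0 of 14 for fibroblasts and 0 of 23 for blood and immune cells, where 2.56% of all peaks were called. At an unadjusted p under 0.05 there were 6, 2, 0 and 0 regions higher at P14 in these lists and 16, 1, 0 and 1 lower, in the same order. The blood and immune list is not separate from the members, since Itgal and Itgam gave 8 and 6 of its 23 tested regions. Only 3 of 8 fibroblast genes and 4 of 9 blood and immune genes had a region.

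Most laminin and integrin regions lay inside the genes, and few covered a gene start examined here. Members were chosen by their assigned gene name, so a place within that gene may follow from the naming. The same shares for other genes were not computed. Of the 303, 284 lay within the RefSeq span of their gene (build GRCm38.p6), 10 crossed an end of it and 9 lay outside. RefSeq promoter windows, from 250 bases before to 50 bases after a start, were at hand for 23 of the 37 genes, 26 windows in all. A region overlapped 3 of these 26 windows, among them those of Itgb6 and Itga9. The Itga9 window belongs to a start inside the gene, and the region that covers it is centred 104394 bp downstream of the gene's outer start. The windows of Itgb6 and Itga9 are shown as examples that a peak overlaps, without standing for the CpG content of such windows. Beside them stand the windows of Itgb1 and Itgav, which are CpG-rich and lay in stretches between peaks. Reads over the windows themselves were not counted, and stretches between peaks also held captured reads. Capitals mark each CpG, and each sequence runs 5′ to 3′ on the strand of its gene.
Itgb6 (chr2:60722554-60722853, minus strand): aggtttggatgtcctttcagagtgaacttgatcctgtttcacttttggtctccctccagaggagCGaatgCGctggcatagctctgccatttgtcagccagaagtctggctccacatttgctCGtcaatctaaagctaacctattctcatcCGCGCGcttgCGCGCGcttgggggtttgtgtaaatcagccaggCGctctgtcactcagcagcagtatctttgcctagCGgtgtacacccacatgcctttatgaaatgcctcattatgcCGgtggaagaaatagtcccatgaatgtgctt
Itga9, inner start (chr9:118711442-118711741, plus strand): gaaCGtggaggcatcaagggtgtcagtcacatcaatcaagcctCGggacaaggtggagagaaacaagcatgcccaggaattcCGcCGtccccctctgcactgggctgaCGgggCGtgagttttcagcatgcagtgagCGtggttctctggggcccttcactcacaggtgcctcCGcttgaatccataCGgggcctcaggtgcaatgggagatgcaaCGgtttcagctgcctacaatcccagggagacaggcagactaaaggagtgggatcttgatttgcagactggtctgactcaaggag
Itgb1 (chr8:128685404-128685703, plus strand): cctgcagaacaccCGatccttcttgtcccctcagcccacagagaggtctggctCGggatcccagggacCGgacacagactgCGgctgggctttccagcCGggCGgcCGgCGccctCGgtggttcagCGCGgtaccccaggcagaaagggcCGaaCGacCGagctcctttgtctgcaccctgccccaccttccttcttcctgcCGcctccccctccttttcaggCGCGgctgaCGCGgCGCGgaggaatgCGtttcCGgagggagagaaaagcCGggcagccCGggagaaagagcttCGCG
Itgav (chr2:83724147-83724446, plus strand): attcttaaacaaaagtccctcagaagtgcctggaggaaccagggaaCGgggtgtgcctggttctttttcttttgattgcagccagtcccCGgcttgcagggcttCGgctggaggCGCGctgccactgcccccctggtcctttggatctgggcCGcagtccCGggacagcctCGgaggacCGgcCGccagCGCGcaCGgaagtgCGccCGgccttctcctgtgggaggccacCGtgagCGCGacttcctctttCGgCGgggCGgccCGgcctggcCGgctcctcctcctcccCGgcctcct

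The Itgb6 and Itga9 windows hold 12 and 10 CpGs, against 27 in the Itgb1 window and 24 in the Itgav window. At laminin and integrin genes, windows in stretches between peaks ranged from 1 CpG at Lama2 to 27 at Itgb1. These examples thus do not stand for the CpG content of windows between peaks either. Over all 32851 promoter windows the median was 7, and 15.5% held at least as many as Itgb1, 20.0% as many as Itgav, 39.6% as many as Itgb6 and 43.5% as many as Itga9. The letters searched were CG, which read the same on both strands.

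Neither region over the Itgb6 and Itga9 starts passed the test. The region over the start of Itgb6, which encodes an epithelial partner of the alpha v chain, held 21, 21 and 11 reads in the P14 libraries, against 10, 7 and 5 at P1. Scaled to peaks this was 4.11 ± 1.27 CPM at P14 and 3.54 ± 1.46 CPM at P1 (SD, n = 3 each), and the groups overlapped. The log2 change was 0.20 (SE 0.52, adjusted p = 1). Relative to the adjoining stretches its read density was 3.64 ± 0.41 times theirs at P14 and 1.67 ± 0.69 times at P1 (SD, n = 3 each). Such a ratio was higher at P14 without overlap of the ages in 42.4% of all peaks. The Itga9 region held 135, 77 and 46 reads at P14 and 40, 52 and 45 reads at P1. In CPM its groups did not overlap, 18.5 ± 1.7 at P14 and 21.6 ± 1.6 at P1 (SD, n = 3 each), but the log2 change of -0.22 (SE 0.23) did not pass (adjusted p = 1).

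The beta 1 chain pairs with most integrin alpha chains of the heart, and its gene carried no region classed as a peak. The whole RefSeq span of Itgb1 (chromosome 8, 128685654 to 128733579) lies in 1 stretch between peaks of 82457 bp, which the table leaves without a gene name and which was classed as a stretch by its read density. That stretch held 2.63, 5.48 and 4.35 reads per kb in P14 replicates 1 to 3, against 7.28, 5.71 and 6.20 at P1. All stretches together held 6.11, 6.74 and 5.56 reads per kb at P14 and 6.74, 6.25 and 6.52 at P1, and peaks 62.5, 34.2 and 25.7 at P14 and 19.9, 21.8 and 21.2 at P1. Itgb8, another partner of alpha v, likewise lies within 1 stretch of 249296 bp, with 2.43, 4.56 and 4.05 reads per kb at P14 and 5.84, 4.91 and 5.23 at P1. On the mean over their stretches, both genes therefore sit at or below the background density of capture in all 6 libraries. The exception was the Itgb1 stretch in P1 replicate 1, slightly above it. Since low density gave the Itgb1 stretch its class, the comparison with other stretches is no independent check of that class. A mean over so long a stretch also cannot show that no site within a gene was captured.

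Among the members, 6 of 297 tested regions passed within peaks, all 6 lower at P14. They lay at 5 genes, of which 1 encodes a laminin chain (Lama2) and 4 encode integrin chains (Itga9, Itgav, Itga1 with 2 regions, and Itgb5). The members' share of 2.02% stands beside 2.45% of all tested peaks lower at P14, so it is close to the background. No member was called higher, against 0.105% of all peaks. At least 1 lower region was found at 7.19% of the 17681 genes with a tested peak, and at 5 of the 37 member genes. A gene with more regions has more chances of a call, and regions per gene were not matched in this comparison. At an unadjusted p under 0.05 there were 12 members lower and 6 higher, where 5.26% of peaks were lower and 2.34% higher (7.59% in either direction). The ages did not overlap in CPM at 16 members lower and 15 higher at P14, against 7.12% and 4.74% of all peaks. The 6 regions that did not pass the filter on low counts lay at Itga11, Itga6, Itgae (2 of them), Itgam and Itgax, with 1 to 9 reads per library at P1.

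**Figure D1:**
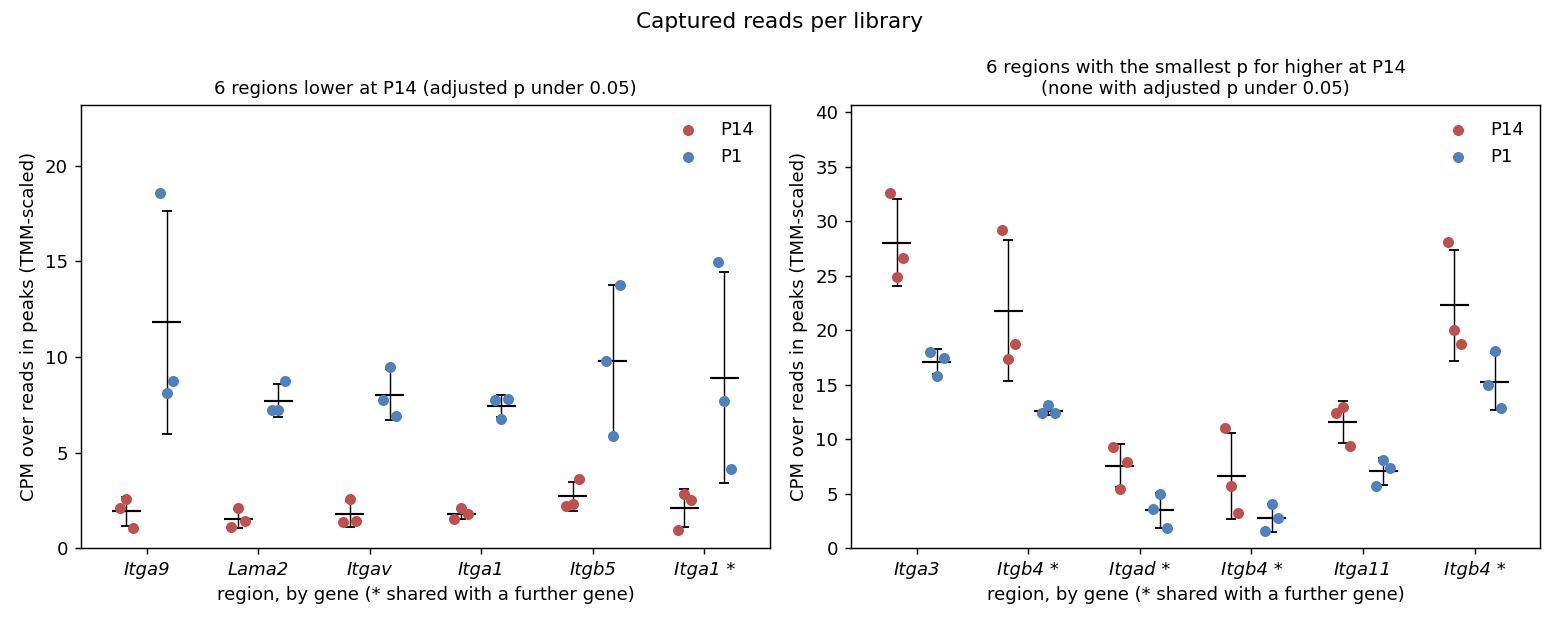
CPM over reads in peaks for each library (points), with the mean (bar) and SD (whiskers) of 3 libraries per age, for the 6 regions called lower at P14 (left) and the 6 uncalled ones whose higher P14 values had the smallest p (right). On the left the P14 libraries reach at most 3.60 CPM and lie below every P1 library of the same region, while on the right the ages overlap in 1 of the 6 regions, at Itgb4.

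The called regions held few reads at P14. At Itga9, whose alpha chain binds tenascin-C and osteopontin, the region on chromosome 9 (118645468 to 118646407) held 15, 10 and 3 reads at P14, against 36, 18 and 19 at P1. This was 1.92 ± 0.77 CPM at P14 and 11.8 ± 5.9 CPM at P1 (SD, n = 3 each), a log2 change of -2.53 (SE 0.46, adjusted p = 0.0242). All 3 P14 libraries lay below all 3 P1 libraries, and P1 replicate 1 was the highest of all 6.

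At Lama2, the laminin chain of muscle basement membrane, a region of 515 bp (chromosome 10, 27148236 to 27148750) held 8, 8 and 4 reads at P14 and 14, 16 and 19 reads at P1. In CPM this was 1.54 ± 0.49 at P14 and 7.72 ± 0.87 at P1 (SD, n = 3 each), a log2 change of -2.34 (SE 0.50, adjusted p = 0.0257). The P1 libraries were close together here, from 7.21 to 8.72 CPM, and the P14 libraries were all low. The gene spans 636 kb and had 5 tested regions, and the other four had log2 changes that did not pass.

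The alpha v chain of Itgav and the beta 5 chain of Itgb5 form one receptor, which binds vitronectin. A region in Itgav (chromosome 2, 83736061 to 83736762) held 10, 10 and 4 reads at P14 and 15, 21 and 15 reads at P1, a log2 change of -2.15 (SE 0.48, adjusted p = 0.0282). A region in Itgb5 (chromosome 16, 33905651 to 33906667) held 16, 9 and 10 reads at P14 and 19, 13 and 30 reads at P1, a log2 change of -1.89 (SE 0.44, adjusted p = 0.0326). In neither gene did the ages overlap in CPM: the P14 libraries were at most 2.60 CPM in Itgav and 3.60 in Itgb5, and the P1 libraries at least 6.89 and 5.87. A further Itgav region nearer the gene start (83729735 to 83730571) held 14, 23 and 17 reads at P14 and 53, 16 and 20 reads at P1. Its log2 change of -1.72 (SE 0.49) did not pass (adjusted p = 0.0648), and P1 replicate 1 alone held most of its P1 reads.

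Itga1, a receptor chain for basement membrane collagen, had 2 lower regions near its start. The first is centred 2594 bp downstream of the start (chromosome 13, 115099016 to 115099724) and held 11, 8 and 5 reads at P14 and 15, 15 and 17 reads at P1. Its 1.80 ± 0.27 CPM at P14 and 7.44 ± 0.57 CPM at P1 (SD, n = 3 each) gave a log2 change of -2.05 (SE 0.48, adjusted p = 0.0320). The second, at 8639 bp from the start (115093055 to 115093595), is also assigned to Pelo, a gene of ribosome rescue. It held 7, 11 and 7 reads at P14 and 29, 17 and 9 reads at P1, a log2 change of -2.15 (SE 0.55, adjusted p = 0.0425). Here the P1 libraries ranged from 4.13 to 14.9 CPM, with replicate 1 the highest.

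Counted from the gene start, the called regions lay at 1.80% and 6.00% of the span in Itga1, 13.3% in Itga9, 16.7% in Itgav, 63.9% in Itgb5 and 73.7% in Lama2. P1 replicate 1 was the highest P1 library in 2 of the 6.

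The calls depended on single libraries. The number of members called lower was 1, 2 and 2 without P1 replicates 1, 2 and 3, and 0, 3 and 1 without P14 replicates 1, 2 and 3. Of all 96774 peaks, 327, 926 and 920 were lower in the first 3 of these fits and 0, 1329 and 1400 in the others. Without P14 replicate 1 no peak of the series was thus called by edgeR, while 5893 had an unadjusted p under 0.05. All 6 kept a negative log2 change in each of these fits, from -1.55 to -2.74. The Itga9 region passed in 4 of the 6 fits, the Lama2 region in 2, and the first Itga1 region in none. Without P14 replicate 1 the adjusted p was 0.204 at Itga9 and Lama2, and it lay between 0.204 and 0.314 over the 6 regions. Without both replicates 1, 2 members passed as lower and 0 as higher, where 0.296% of all peaks were lower and 0.0413% higher (0.337% in either direction). With all libraries DESeq2 called the same 6 regions, while without TMM factors the Itga9 and Lama2 regions alone passed, beside 700 lower peaks in all. With the replicate number as a block 0 members passed, as did 0 of all peaks.

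**Figure D2:**
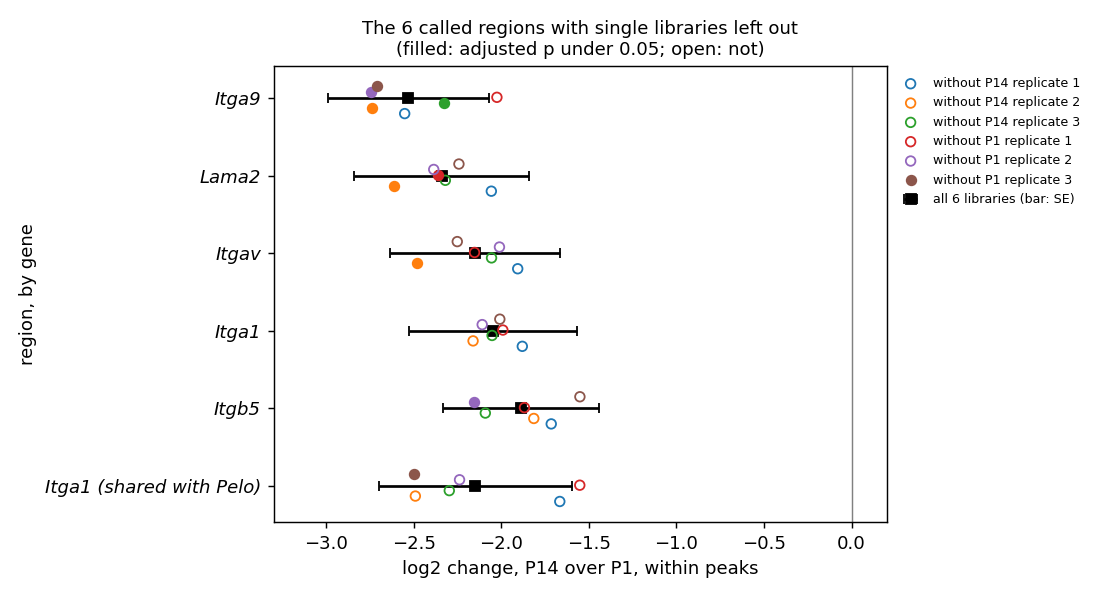
Log2 change of P14 over P1 within peaks for the 6 regions called lower at P14, with all libraries (squares, bars for the SE) and with each library left out in turn (circles, filled where the adjusted p stayed under 0.05). All circles lie between -1.55 and -2.74, and every circle without P14 replicate 1 is open.

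A measure that needs no scaling for library size compared each region with the stretches that adjoin it in the same library. It was chosen after seeing the data. It does not adjust for the share of reads in peaks, which was higher in every P14 library than at P1. The ratio of reads per kb in the region to reads per kb in its flanks could be formed for 282 members. Its median was 4.35, 2.94 and 2.60 in P14 replicates 1 to 3, and 1.60, 1.82 and 1.88 in P1 replicates 1 to 3. Over 95581 peaks of the series the medians were 4.73, 2.99 and 2.73 at P14 and 1.70, 2.07 and 1.95 at P1. The ages did not overlap in 135 members, 132 of them higher at P14 and 3 lower, where 42.4% of all peaks were higher without overlap and 2.05% lower.

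The 3 members with a lower ratio and no overlap were the called regions at Itga9, Itgav and Itgb5. The ratio uses the same reads of a region as the fit, so it is no independent check of these calls. Relative to its flanks the Itga9 region held 0.99 ± 0.69 times the density at P14 and 2.65 ± 1.18 times at P1 (SD, n = 3 each). The Itgav region had ratios of 1.21, 1.12 and 0.67 at P14 and 2.59, 3.07 and 2.17 at P1. The Itgb5 region had 1.02, 0.64 and 1.08 at P14 and 2.39, 1.09 and 2.43 at P1, so its ages were separated only by 1.08 against 1.09. On the mean of the P14 libraries these regions were thus about as dense as the stretches beside them. The ages overlapped at Lama2 (2.96 ± 1.49 at P14 and 5.02 ± 1.01 at P1, SD, n = 3 each) and at both Itga1 regions, where the mean ratio was 1.80 at P14 and 2.85 at P1 for the first region, and 3.41 at P14 and 4.39 at P1 for the second.

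**Figure D3:**
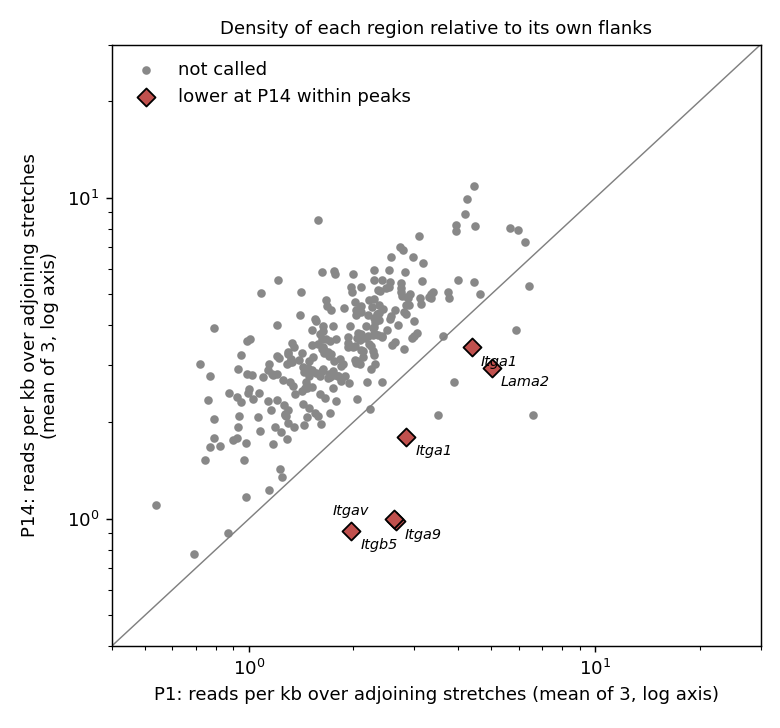
Reads per kb in each of 282 regions divided by reads per kb in the adjoining stretches, as the mean of 3 libraries at P14 (vertical, log axis) against P1 (horizontal, log axis), with the line of equality. Most points lie above the line, and the 6 called regions (diamonds) lie below it, with Itga9, Itgav and Itgb5 near a ratio of 1 at P14.

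Of the 10 members with the smallest p for lower values, those beyond the 6 called ones and the Itgav region above the threshold lay at Itga2b, at Itgam with Itgax, and at Itgbl1. Itga2b, the platelet alpha chain, had a region with 8, 14 and 9 reads at P14 and 13, 20 and 14 at P1 (log2 change -1.56, SE 0.51, adjusted p = 0.137). A region shared by the leukocyte genes Itgam and Itgax had a log2 change of -0.77 (adjusted p = 0.297), and the single Itgbl1 region one of -1.08 (adjusted p = 0.491).

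Regions with higher values at P14 did not pass within peaks. The smallest p was at Itga3, whose chain is a receptor for laminins with the alpha 3 or alpha 5 chain. Its region (chromosome 11, 95056357 to 95058537) held 234, 96 and 74 reads at P14 and 35, 35 and 38 at P1. In CPM this was 28.1 ± 4.0 at P14 and 17.1 ± 1.2 at P1 (SD, n = 3 each), without overlap, a log2 change of 0.72 (SE 0.24, adjusted p = 0.135). Its density relative to its flanks was 2.97, 3.15 and 2.96 at P14 and 1.32, 1.12 and 0.97 at P1. Capture there thus stood out from the surroundings at P14 and hardly at P1. A higher ratio at P14 was not particular to this region. Over all peaks the library medians were 2.73 to 4.73 at P14 and 1.70 to 2.07 at P1. In the fit over all regions the log2 change of the Itga3 region was 1.49 (adjusted p = 0.214). It was the 1 member that passed there without P14 replicate 1 (log2 change 1.07, SE 0.24, adjusted p = 0.0348). In that fit 1.6% of all regions passed, 0.169% higher and 1.43% lower at P14, shares that include the stretches between peaks.

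Itgb4, the partner of the alpha 6 chain in hemidesmosomes, had 3 of the 10 members with the smallest p for higher values. The region with the smallest p of these (chromosome 11, 115990592 to 115991918, assigned also to AL607108NA1) held 210, 67 and 52 reads at P14 and 24, 29 and 27 at P1. It had 21.8 ± 6.5 CPM at P14 and 12.6 ± 0.4 CPM at P1 (SD, n = 3 each), a log2 change of 0.81 (SE 0.27, adjusted p = 0.154). P14 replicate 1 was the highest at 29.2 CPM, and the ages did not overlap. Of 14 tested Itgb4 regions 12 had positive log2 changes, with a median of 0.32, and of 14 in Lama5, which encodes a chain of vascular and epithelial laminins, likewise 12, with a median of 0.27. P14 replicate 1 stood apart at both genes. Summed over regions, Lama5 had 522 CPM in that library and 328 and 302 CPM in P14 replicates 2 and 3, against 301 to 332 CPM at P1. Itgb4 had 261 CPM in P14 replicate 1 and 187 and 153 CPM in replicates 2 and 3, against 151 to 164 CPM at P1. Without P14 replicate 1 the log2 change of the Itgb4 region above was 0.53, and that of the Lama5 region among the 10 was 0.11, against 0.52 with all libraries.

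Other members among these 10 lay at Itga11 (2 regions), Itgad, Itgav, Lamc3 and Lama5. The Itgad region, shared with the muscle cytochrome c oxidase gene Cox6a2, held 67, 21 and 22 reads at P14 and 7, 11 and 4 at P1 (log2 change 1.13, SE 0.45, adjusted p = 0.355). An Itgav region far from the lower ones (chromosome 2, 83788019 to 83788531) held 24, 20 and 10 reads at P14 and 3, 6 and 2 at P1, a log2 change of 1.19 (SE 0.58, adjusted p = 0.690). Its flank ratio was 3.94 ± 1.55 at P14 and 0.79 ± 0.46 at P1 (SD, n = 3 each), where 42.4% of all peaks had a higher ratio at P14 without overlap. Itgav thus held, within one gene, a region that passed as lower and another whose values were higher in every P14 library, the second without passing.

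**Figure D4:**
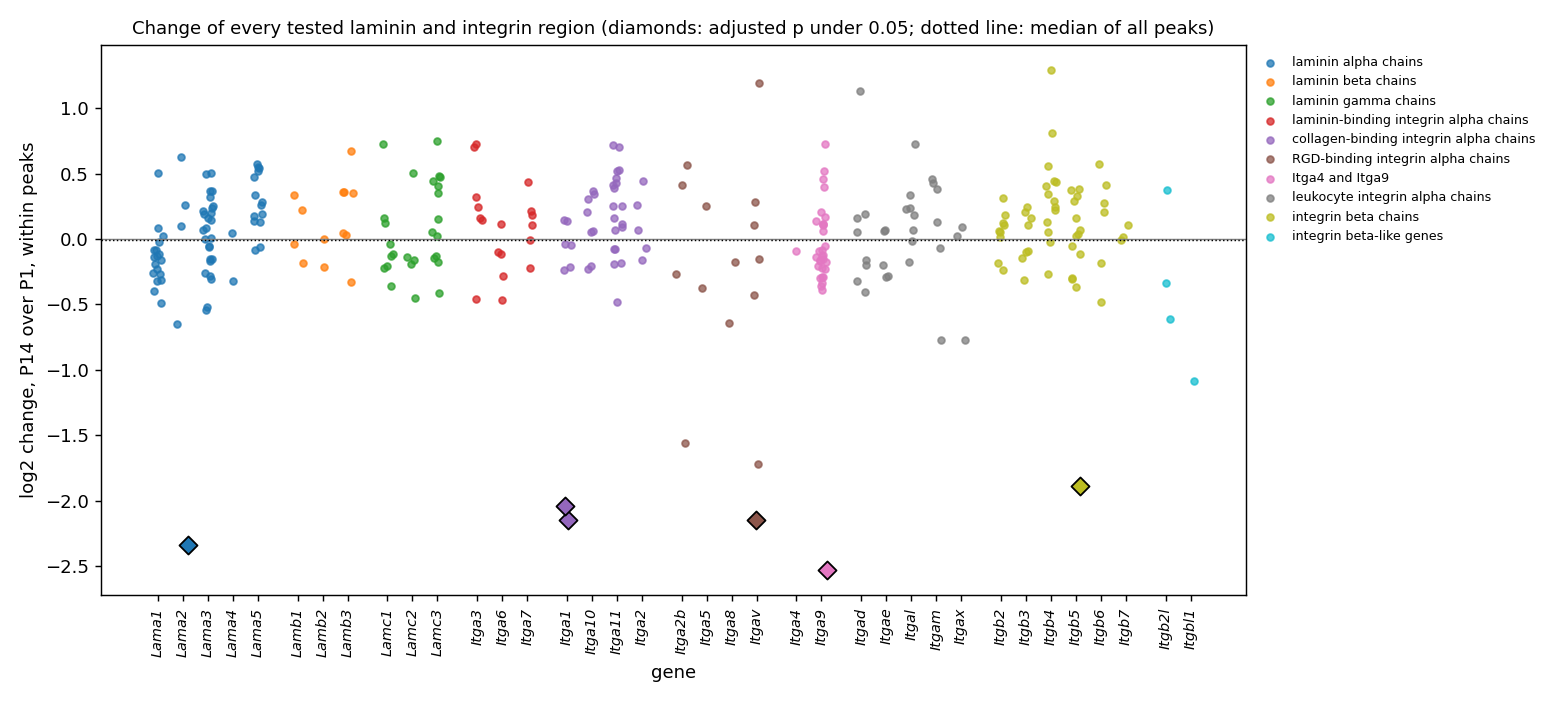
Log2 change of P14 over P1 within peaks for each of 297 tested regions (points), by gene and coloured by role, with the 6 called regions as diamonds. Most points scatter closely around the median of all peaks (dotted line at -0.01), and the called regions lie between -1.89 and -2.53.

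By role, the medians ranged from -0.47 to 0.13. Over the 297 members the median log2 change was 0.06, against -0.01 for all peaks, and 55.9% were positive, against 49.2%. The laminin alpha, beta and gamma chains had medians of 0.03, 0.05 and -0.04 over 65, 13 and 27 regions, with 1, 0 and 0 called. Among integrin alpha chains, the laminin-binding ones (Itga3, Itga6 and Itga7) had a median of 0.13 over 18 regions with none called. The collagen-binding ones had 0.10 over 40 regions with 2 called, and the chains that bind the RGD motif had -0.17 over 15 regions with 1 called. Itga4 and Itga9 together had -0.13 over 32 regions with 1 called, nearly all of them Itga9. The leukocyte alpha chains had 0.07 over 29 regions with none called, the beta chains 0.11 over 54 regions with 1 called, and the beta-like genes Itgb2l and Itgbl1 had -0.47 over 4 regions with none called.

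Genes differed in how many of their regions had positive log2 changes, a description without a test, since neighbouring regions are not independent. Lama1, a chain of embryonic basement membranes, had 3 positive log2 changes among 18 regions (median -0.15, range -0.49 to 0.50). Itga9 had 11 positive among 31 (median -0.13). Itga11, a collagen receptor chain of fibroblasts, had 14 positive among 19 (median 0.25), and Lamb3, a chain of epithelial laminin, 6 of 7 (median 0.35). Other genes were mixed, with 16 positive of 26 at Lama3, 8 of 14 at Itgb5, 4 of 8 at Itgb3 and 4 of 8 at Itgad.

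Summed over all tested regions of a gene, reads separated the ages at 4 of 37 genes. Itga11 was higher at P14 with 8.5 ± 0.33 CPM per kb of tested region, against 7.34 ± 0.47 at P1 (SD, n = 3 each). Itga9 was lower, with 8.0 ± 0.38 CPM per kb at P14 and 8.73 ± 0.31 at P1, and so was Itgav, with 8.64 ± 1.19 at P14 and 11.5 ± 1.8 at P1. Itgbl1, which encodes a soluble relative of the beta chains, had 1 region, with 1.73 ± 0.09 CPM per kb at P14 and 3.71 ± 0.74 at P1. Of 17681 genes with a tested peak 5.11% were higher without overlap and 10.6% lower. The sums contain the regions described above, among them the called ones at Itga9 and Itgav, so they are no separate evidence of a change across a gene. Of the tested regions, 3 of 7 at Itgav and 11 of 31 at Itga9 had positive log2 changes. These sums were described and not tested, and their density between genes also follows the CpGs that a region holds.

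Capture per kb of region, as the mean over 6 libraries, ranged from 2.72 to 16.0 CPM per kb over the tested members, with a median of 8.25. Region by region, the highest CPM of a member was at the end of Lama5 shared with Adrm1 (chromosome 2, 180174846 to 180182600), a region of 7755 bp with 90.4 ± 27.8 CPM at P14 and 80.4 ± 6.0 at P1 (SD, n = 3 each). A region of 5508 bp at Lamb2, the beta chain of mature basement membranes, shared with Usp19, had 74.9 ± 15.2 CPM at P14 and 75.2 ± 17.6 at P1. Their log2 changes of 0.18 and 0.00 (adjusted p = 1 for each) were small beside the spread of the libraries. The region of highest CPM at Lama1 (chromosome 17, 67813727 to 67817453) had 36.5 ± 1.5 CPM at P14 and 38.6 ± 3.8 at P1, and that of Itgb4, shared with Galk1, had 47.5 ± 14.4 at P14 and 35.3 ± 3.9 at P1 (SD, n = 3 each). At the regions of highest CPM of Itgb2, Itga9, Itgad, Itgb6 and Lama3 the P14 means lay between 16.3 and 22.8 CPM, and the P1 means between 17.8 and 23.8 CPM. Genes differed far more in how many regions they held, from 31 at Itga9 and 26 at Lama3 to 1 at Itga4 and 1 at Itgbl1. Per 100 kb of span this was 42.2 at Itga10 and 41.6 at Itgb4, against 0.79 at Lama2, 0.31 at Itgbl1 and 1.38 at Lama4, the laminin chain of small vessels.

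In the fit over all regions 0 of 297 members passed, as did 0.0% of all 209063 regions. DESeq2 called 0 members and 83 regions in all (0.0397%, of which 0.0392% higher and 0.000478% lower at P14). The median log2 change of members was 0.79 there, against 0.73 for all peaks and -0.29 for the stretches between them. At an unadjusted p under 0.05, 23.0% of all regions were found, 12.7% higher and 10.3% lower at P14. The smallest member p was at the Itga3 region above. With both replicates 1 left out 7 members passed, where 1.23% of regions were higher and 2.46% lower (3.68% in either direction). All these shares are over peaks and stretches together, while every member is a peak, so they are not a background for peaks alone. Higher at P14 were regions at Lamb3 (log2 change 1.498), Itga3 (1.074), Itgb4 (0.942), Lama5 (0.671) and Lamb2 (0.483). Lower were the called regions at Lama2 (log2 change -1.67, adjusted p = 0.0451) and Itga9 (-1.64, adjusted p = 0.0439). The median member was at 0.456 in this fit, so the Lamb2 region lay close to a shift shared by the members. Within peaks, with the same libraries left out, the Lamb2 region was at 0.052 and no member passed as higher.

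Scaled to the reads between peaks, which moved the median of all peaks to 1.10, 30 members were called higher and 0 lower. The background was 9.62% of all peaks higher and 0.115% lower (9.74% in either direction), and the members counted here were 30 of 297. Of the 30, 16 lay at Itgb4, Lama5 and Itga11, the genes with the most of these calls. These genes had 14, 14 and 19 of the 297 tested regions, in that order. Under this scaling the called regions were at -1.38 for Itga9 and -1.28 for Lama2 (adjusted p = 0.0784 and 0.0954), and the other four at -0.80 to -1.11, none of which passed. P14 replicate 1, with 31.3% of its reads in peaks, was far above the other libraries in that share, and its part in these 30 calls was not tested.

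The members' share of reads in peaks was 0.304% ± 0.034 at P14 and 0.269% ± 0.008 at P1 (SD, n = 3 each). This difference, 0.0346 percentage points, gave p = 0.2 in a two-sided exact permutation test, where 3 libraries against 3 allow no p below 0.1. P14 replicates 1 to 3 had 0.340%, 0.298% and 0.274%, and the P1 libraries 0.261% to 0.277%, so the ages overlapped. Without P14 replicate 1 the difference was 0.0165 percentage points. As a share of all reads, which also follows the reads in peaks, the members had 0.0693% ± 0.0326 at P14 and 0.0337% ± 0.0021 at P1 (SD, n = 3 each, exact permutation p = 0.1).

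Ligands and adaptors of these receptors also had few calls. Of 30 other matrix ligand genes (nidogens, perlecan, collagen IV chains, fibronectin, netrins and others), 29 had a region, and 3 of 261 tested regions were lower at P14 with 0 higher. These lay at Col4a4 (log2 change -2.29, SE 0.55, adjusted p = 0.0335), a collagen IV chain, at Ntn4 (-1.86, SE 0.39, adjusted p = 0.0256), a netrin that binds laminin gamma chains, and at Frem1 (-1.75, SE 0.43, adjusted p = 0.0353), a basement membrane protein. Of 30 genes of adhesion adaptors and kinases, 28 had a region, and 3 of 207 were lower with 0 higher. They lay at Tns1 (-2.17, SE 0.51, adjusted p = 0.0326) and Tns3 (-2.14, SE 0.54, adjusted p = 0.0404), tensins that bind beta chain tails, and at Nedd9 (-2.07, SE 0.54, adjusted p = 0.0455), a docking protein downstream of focal adhesion kinase. The medians of the ligand and adaptor lists were 0.00 and 0.04, and 1.15% and 1.45% of their regions were called, against 2.56% of all peaks.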

How the data were processed

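Per the submitters' processing notes, BWA, MACS, bedtools and edgeR 3.2.4 were used with build GRCm38 (mm10). The sources name no step, setting or pooling for them. The deposited table holds read counts per region, not normalized by the authors. Its 221524 lines were collapsed to 213957 regions. Starts are given 1-based. No region averaged under 10.0 reads across libraries. Regions alternate between peaks and stretches, and the class was taken from gene names, chromosome ends or, for 56202 regions, read density. In a run of adjoining regions, the alternate set with the higher mean density was taken as peaks, and a density cut classed lone regions. That cut was chosen on the settled regions and gave the same class in 94.4% of them. It is therefore not a measure of accuracy for the 56202 regions. All members carry a gene name. Fits used edgeR 4.0.16 (R 4.3.3) with TMM, filterByExpr judged on all regions, and age as the only term. The SE of a log2 change is its size over the square root of F. DESeq2 1.42.0 was an alternative, and the code was tested on simulated data. Sequences, spans and promoters are from RefSeq, GRCm38.p6, and all 37 genes matched a span. Named regions were every member called in either fit, the 10 with the smallest p in each direction within peaks, and the 10 highest in CPM among the top region of each gene. Regions named for a promoter window, and the Lama5 and Lamb3 regions called without both replicates 1, were chosen after their values were seen. Members, lists and tests were chosen with earlier results of these data known. Deviations of same-numbered libraries correlated at -0.05, -0.05 and 0.02, so replicate numbers were not treated as pairs. Regions shared by several genes cannot be assigned to one of them. The region over the remaining promoter window is not reported here.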

Additional observations from a re-analysis of the deposited data

How the results depend on the processing

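Without TMM factors 2 members at 2 genes were lower within peaks (700 of all 96774 peaks), and the median log2 change of members was 0.21 within peaks and 1.05 over all regions. With single libraries left out, 0 to 3 members at 0 to 3 genes were lower, and the medians ranged from 0.038 to 0.096 within peaks and from 0.50 to 0.90 over all regions, where 0 to 1 member was higher. Without both replicates 1, 2 members at 2 genes were lower within peaks. Over all regions 5 were then higher and 2 lower, with a median of 0.46. DESeq2 gave a median of 0.72 over all regions. With the replicate block 0 members at 0 genes and 0 of all 96774 peaks passed (edgeR, 6772 peaks at an unadjusted p under 0.05), and Lamb2 stood at -0.00114, but the numbers do not pair the libraries. Scaled to reads between peaks, 30 members at 15 genes were higher and 0 lower, with a median of 1.17. Uncalled regions that changed sign there were those of Itga9 (118813844) at 0.72, Itgam and Itgax at 0.30, Itgb6 at 0.93, Itgbl1 at 0.039, Lama1 at 1.01 and Lama3 at 0.54. Lama1 was at 0.068 without TMM factors and Lama5 (180174846) at -0.13 without both replicates 1. With single libraries left out, uncalled regions ranged from -0.083 to 0.21 at Itgad, -0.078 to 0.32 at Itgb2, -0.12 to 0.00121 at Lama1, -0.092 to 0.31 at Lama5 and -0.15 to 0.22 at Lamb2. The cause was not tested. The called regions held 3 to 16 reads per P14 library, which limits the precision of their log2 changes.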
